A study of Mus musculus with 9 samples.

Results

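The 9 genes described here are markers by which pericytes are recognised in single-cell and histological work: Rgs5, Cspg4, Kcnj8, Abcc9, Higd1b, Cox4i2, Ndufa4l2, Mcam and Trpc6. They were found by symbol, and all 9 were among the 16165 genes measured. The set was selected on measured RPKM, because Rgs5 had been seen to rise in the lungs of TGFα mice given vehicle compared with control lungs, and the question was whether it rose alone. For that reason the comparison of TGFα vehicle with control lungs is given below as values without a test of these genes, whereas comparisons that include the pirfenidone libraries are tested.

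RNA sequencing was applied to total lung RNA in 3 groups of 3 libraries. Control mice received vehicle. Their descriptions carry the code ST and the word Normal, and those of the TGFα mice carry the code BT. The labels do not explain these codes, so the genotype of the controls is not stated. TGFα mice bear a transforming growth factor alpha transgene and are a model of lung fibrosis. They had Dox (doxycycline) for 6 weeks with either vehicle or pirfenidone, an antifibrotic drug, in the last 3 weeks. Dox is not named in the labels of the controls, whereas the series text can be read as covering controls on Dox as well. If the controls had none, effects of the transgene and of Dox cannot be told apart. No control mice on pirfenidone were included. The sources used here give neither strain nor age nor the promoter that drives the transgene. Nothing in the labels ties each library to 1 mouse, so the p-values below measure the spread between these libraries.

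Pericytes are contractile support cells that lie on capillaries beneath the basement membrane and share many genes with vascular smooth muscle, with which they are grouped as mural cells. Endothelial cells recruit them through platelet-derived growth factor B, and pericytes receive that signal through the receptor Pdgfrb. In the lung they surround the alveolar capillaries. In whole-lung RNA a lower level can come from fewer cells of a type or from less RNA per cell, and these cannot be told apart. None of the 9 genes is exclusive to pericytes: smooth muscle cells carry several of them and endothelial cells carry Mcam.

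The libraries held 11428709 to 18874158 reads, and the member with the fewest reads in any library was Rgs5, with 84 in a control library. Over all tested genes, 2 libraries lay away from the others of their group on the second principal component, which held 25.4% of the variance. TGFα vehicle replicate 1 scored 3.7 against -26.9 and -27.1 for its group, and TGFα pirfenidone replicate 3 scored -16.4 against 28.3 and 33.6. Results that rest on these libraries are given with and without them. A chi-square of the reads, averaged over genes, also set control replicate 3 apart. It was 77.4 and 69.8 against control replicates 1 and 2, and 6.37 between those 2. For the 2 TGFα libraries named above it was 37.3 to 42.1 against the others of their groups. Every comparison with control lungs includes control replicate 3. Muscle markers differed between single libraries: the summed level of 10 skeletal muscle genes was 9.11 to 13.95 RPKM in controls but 1050, 399 and 5.42 RPKM with vehicle and 289, 1599 and 10.2 RPKM with pirfenidone in TGFα lungs. RPKM corrects the reads of a gene for its length and for the size of the library, so levels of different genes may be compared.

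The sequences around the start sites of 2 pairs of neighbouring genes are shown, because these pairs are read beside each other below. Rgs5 lies at chr1:169655501-169695813 on the plus strand of GRCm38, and its family member Rgs4 lies at chr1:169741477-169747642 on the minus strand, 45663 bases further with 0 RefSeq genes between them. Kcnj8 (chr6:142564837-142571614) and Abcc9 (chr6:142587862-142702766), both on the minus strand, are 16247 bases apart, again with 0 RefSeq genes between. Each window holds 250 bases before and 50 from the RefSeq start site (GRCm38.p6), read 5′ to 3′ on the gene's strand, and positions are counted with the start-site base as 0. The start sites of the Abcc9 and Trpc6 windows lie inside the gene spans given by RefSeq, not at their outer ends. Capitals mark matches to 4 motifs searched on both strands: the hypoxia-inducible factor cores ACGTG and GCGTG, the RBPJ motif TGGGAA of Notch signalling, and the CArG box bound by serum response factor. No motif overlaps another in the 4 windows printed.
Rgs5 (chr1:169655251-169655550, plus strand): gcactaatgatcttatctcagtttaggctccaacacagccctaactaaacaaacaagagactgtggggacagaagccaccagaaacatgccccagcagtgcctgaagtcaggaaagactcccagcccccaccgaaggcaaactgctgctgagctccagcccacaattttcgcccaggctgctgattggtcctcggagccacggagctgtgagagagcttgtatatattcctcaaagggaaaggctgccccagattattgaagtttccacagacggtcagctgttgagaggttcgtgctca
Rgs4 (chr1:169747593-169747892, minus strand): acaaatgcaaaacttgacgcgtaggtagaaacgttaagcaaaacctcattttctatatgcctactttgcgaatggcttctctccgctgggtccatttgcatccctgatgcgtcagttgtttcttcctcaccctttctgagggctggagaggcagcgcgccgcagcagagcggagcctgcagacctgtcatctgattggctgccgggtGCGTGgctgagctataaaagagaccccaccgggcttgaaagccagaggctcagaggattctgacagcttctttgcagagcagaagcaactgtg
Kcnj8 (chr6:142571565-142571864, minus strand): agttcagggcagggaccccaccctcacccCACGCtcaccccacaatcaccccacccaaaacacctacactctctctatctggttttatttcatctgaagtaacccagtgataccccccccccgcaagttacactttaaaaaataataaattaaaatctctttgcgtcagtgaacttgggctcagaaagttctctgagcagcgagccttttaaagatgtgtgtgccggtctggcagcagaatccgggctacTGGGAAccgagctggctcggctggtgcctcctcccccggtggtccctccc
Abcc9 (chr6:142702225-142702524, minus strand): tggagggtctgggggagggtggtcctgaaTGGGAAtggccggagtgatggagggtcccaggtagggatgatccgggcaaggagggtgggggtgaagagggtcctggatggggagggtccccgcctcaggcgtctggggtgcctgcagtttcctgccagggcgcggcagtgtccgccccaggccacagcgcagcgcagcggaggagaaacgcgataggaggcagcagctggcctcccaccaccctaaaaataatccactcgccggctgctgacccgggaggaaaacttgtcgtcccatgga
The Rgs5 window held none of the 4 motifs, and neither did that of Mcam. The Rgs4 window held GCGTG at -43 to -39. Kcnj8 held TGGGAA at 0 to 5 and Abcc9 held it at -221 to -216, and Kcnj8 also held GCGTG on the other strand, printed as CACGC. Among 32851 promoter windows of the same length, GCGTG was found in 32.4%, TGGGAA in 25.6%, ACGTG in 19.6% and a CArG box in 1.63%. Of the other members with a window, Trpc6 held a CArG box at -122 to -113 and ACGTG at -94 to -90, and Cspg4 held GCGTG on the other strand. These are matches of letters and not measured binding. Windows were matched for 6 of the 9 members, the others being Higd1b, Cox4i2 and Ndufa4l2.

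Rgs5 was the lowest of the 9 genes in every control library and stood at rank 3 to 5 in every TGFα library. It encodes a regulator of G protein signalling, which speeds the shut-off of Gαi and Gαq and so dampens responses to vasoconstrictors. Rgs5 measured 2.76, 3.57 and 2.94 RPKM in controls, 28.6, 18.8 and 19.6 RPKM in TGFα lungs with vehicle, and 29.7, 18.6 and 7.67 RPKM in TGFα lungs with pirfenidone. Every TGFα library was above every control library, while the vehicle and pirfenidone libraries of TGFα lungs overlapped over most of their range. The group means were 3.09 ± 0.426 RPKM in controls, 22.3 ± 5.43 RPKM with vehicle and 18.6 ± 10.99 RPKM with pirfenidone (SD, n = 3 each). These levels rest on 84 to 100 reads in controls and 196 to 963 reads in TGFα lungs. Ordered by level, vehicle and pirfenidone lungs were neighbours that did not differ beyond their spread.

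**Figure D1:**
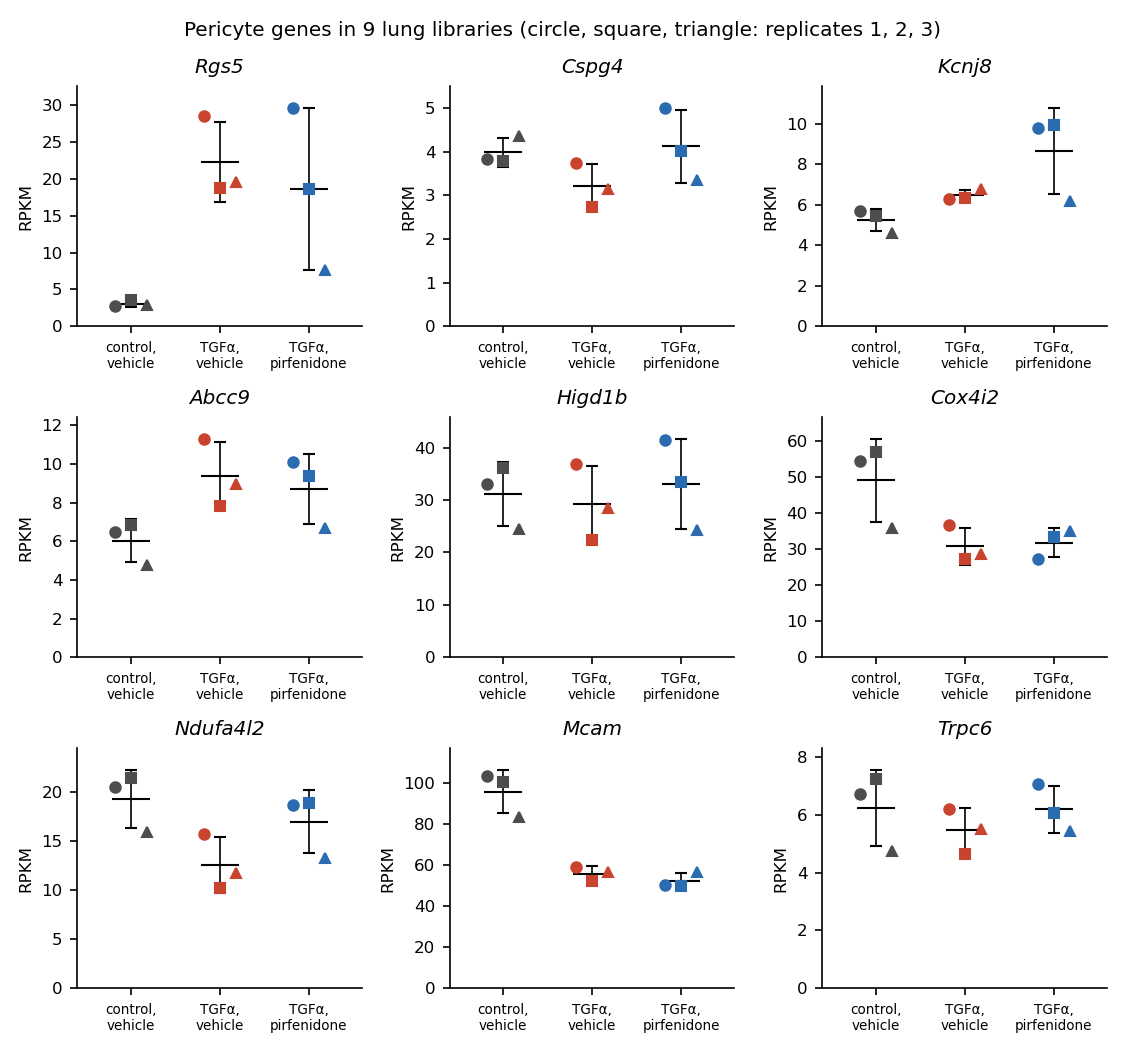
RPKM (vertical axes, each starting at 0) of the 9 pericyte genes in the 3 groups, with 1 symbol per library (circle, square and triangle for replicates 1, 2 and 3), the mean as a horizontal bar and the SD as whiskers. Rgs5 is at 2.76 to 3.57 RPKM in controls and at 7.67 to 29.7 RPKM in TGFα lungs, while Mcam is at 83.6 to 103 RPKM in controls and at 50.01 to 58.95 RPKM in TGFα lungs.

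Against control lungs, Rgs5 was 6.03-fold higher in TGFα lungs given pirfenidone (log2 fold change 2.09, SE 0.393, 95% confidence interval 1.20 to 2.98, adjusted p = 0.00979 by limma on log2(RPKM + 1), higher in 3 of 3 libraries). The control libraries of this comparison are those on which Rgs5 had been selected, so it is not an independent test of the rise. The members were also chosen with earlier results of these data known. The call held under all 13 alternative settings, with adjusted p from 0.000453 to 0.0429, and without pirfenidone replicate 3 the log2 fold change was 2.59. Between pirfenidone and vehicle in TGFα lungs the ratio of means was 0.835 and the log2 fold change -0.40 (SE 0.393, 95% confidence interval -1.30 to 0.49, adjusted p = 0.592 by limma), so no difference was detectable with this spread. Its sign rested on pirfenidone replicate 3, the library with 7.67 RPKM. Without that library the log2 fold change was 0.10 (adjusted p = 0.815), and without it and vehicle replicate 1 together, a setting chosen after seeing the data, it was 0.28 (adjusted p = 0.368).

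Skeletal muscle and adipocyte markers moved with single libraries. In TGFα vehicle replicate 3 the summed skeletal muscle level of 5.42 RPKM and the summed adipocyte level (Adipoq, Plin1 and Cidec) of 1.48 RPKM lay below every control library, and Rgs5 there was 19.6 RPKM. The adipocyte sum was 4.17, 6.00 and 4.29 RPKM in controls, 18.01, 3.401 and 1.48 RPKM with vehicle and 50.7, 47.3 and 8.06 RPKM with pirfenidone. Pirfenidone replicate 3, the TGFα library with the lowest Rgs5, had 10.2 RPKM of summed skeletal muscle markers, within the control range. Among the vehicle libraries, replicate 1 had the most summed skeletal muscle markers, 1050 RPKM, and the most Rgs5, 28.6 RPKM. Pirfenidone replicate 2 had the most of these markers in any library, 1599 RPKM, with 18.6 RPKM of Rgs5. Of the defining skeletal muscle genes, Acta1 was at 0.451 to 0.74 RPKM and Myh1 at 0.00988 to 0.0196 RPKM in controls. The part of skeletal muscle and adipocytes in the level of Rgs5 was not tested.

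Smooth muscle markers, which mural cells share, gave 5 of 9 tested that passed as lower and 0 as higher in TGFα vehicle against control lungs, where 12.0% of all genes passed as higher and 11.2% as lower. Acta2 (smooth muscle actin) fell from 78.7 to 29.4 RPKM (adjusted p = 0.0028 by limma) and Myh11, the myosin of these cells, fell 2.69-fold (adjusted p = 0.00452), and both calls held in all 13 alternative settings. The count became 3 without control replicate 2 or vehicle replicate 3. In those fits 11.5% and 9.48% of all genes passed, against 23.3% with all libraries. In TGFα pirfenidone against control lungs 1 of 9 passed as lower (Myh11) and 0 as higher, where 7.74% and 10.6% of all genes did so. This count became 0 without control replicate 1 or 2 or pirfenidone replicate 2 or 3, and 2 without control replicate 3. Of all genes 18.4% passed with all libraries, 8.01% to 20.9% in the fits that gave 0 and 22.1% without control replicate 3. Smtn, a smooth muscle cytoskeletal protein, lay above all controls there, at 26.3 against 20.2 RPKM, and did not pass (adjusted p = 0.0883). Against vehicle, all 9 had a log2 fold change above 0 in pirfenidone lungs and 5 had all pirfenidone libraries above all vehicle libraries (15.3% of all genes). In that comparison 7 were at an unadjusted p under 0.05 (20.7% of all genes) and 0 passed by limma or limma-voom. The part of smooth muscle cells in the level of Rgs5 was not tested.

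**Figure D2:**
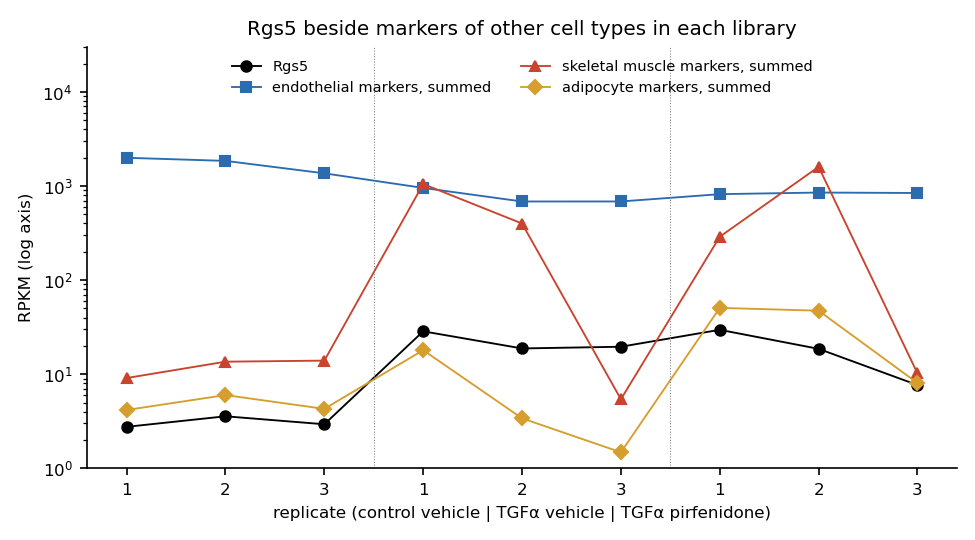
Level in RPKM (log axis) of Rgs5 and of the summed endothelial, skeletal muscle and adipocyte markers in each of the 9 libraries, ordered by group and replicate. TGFα vehicle replicate 3 combines 19.6 RPKM of Rgs5 with 5.42 RPKM of summed skeletal muscle markers and 1.48 RPKM of summed adipocyte markers. TGFα vehicle replicate 1 combines 28.6 RPKM of Rgs5 with 1050 and 18.01 RPKM of these sums.

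The paired channel genes Kcnj8 and Abcc9 were the other members whose TGFα vehicle libraries all lay above the controls. Kcnj8 encodes Kir6.1, the pore of the vascular ATP-sensitive potassium channel, and Abcc9 encodes its regulatory subunit SUR2. Kcnj8 measured 5.68, 5.43 and 4.62 RPKM in controls, 6.28, 6.35 and 6.78 RPKM with vehicle, and 9.80, 9.96 and 6.18 RPKM with pirfenidone. Both TGFα groups were above the controls, and pirfenidone replicates 1 and 2 were above all vehicle libraries while replicate 3 was below them. In TGFα pirfenidone lungs Kcnj8 was 1.65-fold higher than in controls (log2 fold change 0.60, SE 0.161, adjusted p = 0.0339 by limma, higher in 3 of 3 libraries). This call held in 6 of 13 alternative settings. It was lost with median-of-ratios scaling (adjusted p = 0.0544), with only the 2 groups in the model (0.0733), and in 5 of 6 fits without 1 library: without control replicate 1 (0.0733), 2 (0.0857) or 3 (0.0698), or without pirfenidone replicate 1 (0.106) or 2 (0.115).

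Abcc9 measured 6.501, 6.83 and 4.77 RPKM in controls, 11.3, 7.82 and 8.96 RPKM with vehicle, and 10.1, 9.38 and 6.67 RPKM with pirfenidone. Its vehicle libraries were above all controls, and its pirfenidone libraries overlapped both other groups. In TGFα pirfenidone lungs against controls the log2 fold change of 0.46 did not pass (SE 0.185, adjusted p = 0.118 by limma), but it passed without pirfenidone replicate 3, at 0.62. Abcc9 over Kcnj8, taken within each library, was 1.14, 1.26 and 1.03 in controls, 1.8, 1.23 and 1.32 with vehicle and 1.03, 0.942 and 1.08 with pirfenidone, so the groups overlapped in part. The 1.8 belonged to vehicle replicate 1, which had 1050 RPKM of summed skeletal muscle markers. Pirfenidone replicate 2, with 1599 RPKM of these markers, had 0.942. The part of skeletal muscle in the level of Abcc9 was not tested. The pancreatic counterparts of the pair stayed under 1 RPKM in every library: Kcnj11 ranged from 0.229 to 0.85 RPKM and Abcc8 from 0.111 to 0.652 RPKM.

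Trpc6, a diacylglycerol-gated cation channel of smooth muscle and pericytes, measured 6.73, 7.24 and 4.76 RPKM in controls, 6.21, 4.64 and 5.52 RPKM with vehicle, and 7.05, 6.05 and 5.45 RPKM with pirfenidone. The 3 groups overlapped throughout. Its log2 fold change in TGFα pirfenidone lungs against controls was -0.001, with a 95% confidence interval of -0.36 to 0.36 (adjusted p = 0.998 by limma). Part of the Trpc6 span is shared with Gm32014 in RefSeq, and strand use in the counting is not stated, so its reads could include those of that gene.

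Mcam and Cspg4 encode surface proteins. Mcam (CD146) is an adhesion molecule of endothelial and mural cells and was the highest of the 9 in every library. Mcam measured 103, 100.3 and 83.6 RPKM in controls, 59.0, 52.1 and 56.5 RPKM with vehicle, and 50.4, 50.01 and 56.6 RPKM with pirfenidone. All TGFα libraries were below all controls, and the TGFα groups overlapped. In TGFα pirfenidone lungs Mcam was 1.83-fold lower than in controls (log2 fold change -0.85, SE 0.10, adjusted p = 0.00159 by limma, lower in 3 of 3 libraries), a call that held in all 13 alternative settings. Endothelial markers moved with it: their summed level was 1995, 1849 and 1364 RPKM in controls, 954, 685 and 685 RPKM with vehicle and 819, 852 and 843 RPKM with pirfenidone, and 10 of 11 passed as lower in the same comparison, where 7.74% of all genes did so. Without control replicate 2 that count was 6, in a fit where 8.1% of all genes passed, against 18.4% with all libraries. Among these, the endothelial adhesion molecule Pecam1 fell from 278 to 148 RPKM (adjusted p = 0.0159) and the junction protein Cdh5 from 255 to 119 RPKM (adjusted p = 0.00668). The Pecam1 call was lost without control replicate 1 (0.0613) or 2 (0.0614) or pirfenidone replicate 2 (0.0516). The part of endothelial cells in the Mcam difference was not tested. Cspg4 (NG2), a proteoglycan that binds growth factors and matrix, measured 3.82, 3.77 and 4.36 RPKM in controls, 3.75, 2.73 and 3.14 RPKM with vehicle, and 5, 4.01 and 3.34 RPKM with pirfenidone. Its vehicle libraries were just below all controls and its pirfenidone libraries spanned both groups (log2 fold change against control 0.03, SE 0.142, adjusted p = 0.914 by limma).

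Cox4i2, Ndufa4l2 and Higd1b encode mitochondrial proteins linked to oxygen use. Cox4i2 is the lung-enriched isoform of subunit 4 of cytochrome c oxidase. It measured 54.4, 57.1 and 35.8 RPKM in controls, 36.7, 27.2 and 28.6 RPKM with vehicle, and 27.3, 33.3 and 35.0 RPKM with pirfenidone. Control replicate 3 was the lowest control and lay within the range of the vehicle libraries, just above all pirfenidone libraries. In TGFα pirfenidone lungs Cox4i2 was 1.54-fold lower than in controls but missed the threshold (log2 fold change -0.59, SE 0.189, adjusted p = 0.0619 by limma). It passed without control replicate 3, at -0.80, and with median-of-ratios scaling, at -0.64. Its share of the 2 subunit 4 isoforms, Cox4i1 and Cox4i2 together, was 19.1%, 18% and 10.9% in controls, 10.1%, 6.96% and 8.07% with vehicle and 7.95%, 8.26% and 9.73% with pirfenidone. Each control share was above each TGFα share, and Cox4i1, the widespread isoform, was higher in TGFα vehicle than control lungs (339 against 261 RPKM, adjusted p = 0.0425 by limma). The Cox4i1 call held in 5 of 13 alternative settings: it was lost with median-of-ratios scaling (0.0655), with only the 2 groups in the model (0.0599) and without any of control replicates 1 and 2 or vehicle replicates 1, 2 and 3 (0.0511 to 0.146). It was also lost without vehicle replicate 1 and pirfenidone replicate 3 together (0.0501).

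Ndufa4l2, a relative of the respiratory chain subunit Ndufa4 that is induced by hypoxia-inducible factor, measured 20.5, 21.4 and 15.9 RPKM in controls, 15.8, 10.2 and 11.7 RPKM with vehicle, and 18.7, 18.9 and 13.3 RPKM with pirfenidone. The vehicle libraries were below all controls, replicate 1 only just, and the pirfenidone libraries overlapped both groups. Higd1b, a hypoxia-inducible domain protein, measured 33.0, 36.0 and 24.4 RPKM in controls, 36.8, 22.4 and 28.4 RPKM with vehicle, and 41.5, 33.4 and 24.3 RPKM with pirfenidone, with all groups overlapping. Neither passed in TGFα pirfenidone lungs against controls (Ndufa4l2 log2 fold change -0.18, adjusted p = 0.543; Higd1b 0.07, adjusted p = 0.864; limma). RefSeq spans overlap between Cox4i2 and Bcl2l1, Ndufa4l2 and Shmt2, and Higd1b and Eftud2, so the levels of these members are uncertain to the extent that reads of the partner were counted.

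Counted over the set, 3 of 9 members (Rgs5, Kcnj8 and Abcc9) had all TGFα vehicle libraries above all controls and 3 (Mcam, Ndufa4l2 and Cspg4) had all below, with ratios of means of 7.22, 1.23 and 1.55 and of 0.584, 0.651 and 0.805. Of all 13849 genes tested, 25.4% had groups that did not overlap and were higher and 18.8% were lower in this comparison, on which the set was chosen. Cox4i2 (0.628), Trpc6 (0.874) and Higd1b (0.938) overlapped. The median log2 fold change of the members was -0.16, and that of all genes 0.04.

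In TGFα pirfenidone lungs against controls, 2 of 9 members passed as higher (Rgs5 and Kcnj8) and 1 as lower (Mcam), against 10.6% and 7.74% of all genes. Higher genes made up 57.9% of all that passed there, and 46.3% with median-of-ratios scaling. Limma-voom on the recovered reads also passed 3. The number that passed ranged from 2 to 4 over the alternatives. Groups that did not overlap were found for 2 members higher (Rgs5 and Kcnj8; 22.5% of all genes) and 2 lower (Mcam and Cox4i2; 14.8%). The median log2 fold change was 0.03 for the members and 0.05 for all genes. This comparison shares its control libraries with that of TGFα vehicle and control, on which the set was chosen, so its counts are not independent of that choice.

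Pirfenidone against vehicle in TGFα lungs gave 0 of 9 members that passed by limma, 0 at an unadjusted p under 0.05 (20.7% of all genes) and 0 by limma-voom, where 0.152% of all genes passed as higher and 0.549% as lower. No member had groups that did not overlap, whereas 15.3% of all genes did so higher and 9.13% lower. The largest difference by p was Ndufa4l2, at 12.5 RPKM with vehicle and 17.0 RPKM with pirfenidone (log2 fold change 0.41, 95% confidence interval -0.02 to 0.85, unadjusted p = 0.059, adjusted p = 0.258). Without pirfenidone replicate 3, 1 member passed (Kcnj8, log2 fold change 0.54, adjusted p = 0.0129), while the count over all genes went from 97 to 2111. Without vehicle replicate 1 as well, 3 members passed (Kcnj8, Cspg4 and Ndufa4l2) and 2941 genes in all, 21.5% of those tested. That last setting was chosen after seeing the data and leaves out the libraries nearest the other group, so these calls support nothing by themselves. The vehicle libraries of this comparison are also those on which the set was chosen.

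**Figure D3:**
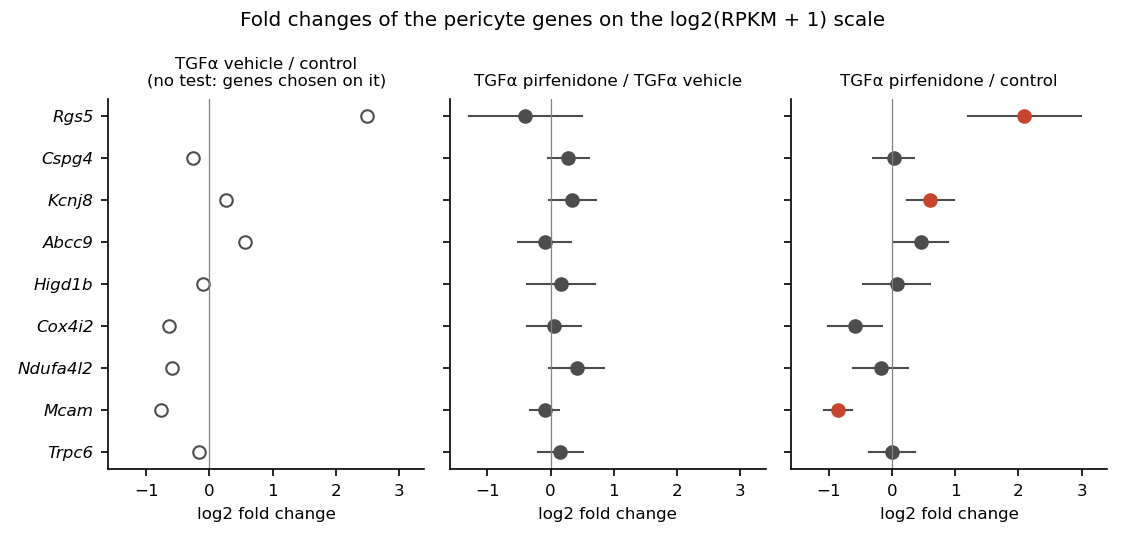
Log2 fold changes of the 9 genes on the log2(RPKM + 1) scale in the 3 comparisons, with 95% confidence intervals where tested; filled red points passed the threshold of 0.05 on the adjusted p, and open points carry no test. Against controls, the TGFα pirfenidone lungs show Rgs5 at 2.09, Kcnj8 at 0.60 and Mcam at -0.85.

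Within each library, Rgs5 was also set against other mural genes. Rgs5 over Pdgfrb, the receptor that marks mural cells and fibroblasts, was 0.0647, 0.0837 and 0.0977 in controls, 0.909, 0.633 and 0.534 with vehicle and 0.641, 0.390 and 0.207 with pirfenidone. Over Abcc9 it was 0.425, 0.523 and 0.616 in controls, 2.53, 2.40 and 2.19 with vehicle and 2.94, 1.98 and 1.15 with pirfenidone. Over Cspg4 it was 0.674 to 0.947 in controls and 2.30 to 7.63 in TGFα lungs. In each ratio all TGFα libraries were above all controls. Since Rgs5 was selected for its rise, these are descriptions.

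**Figure D4:**
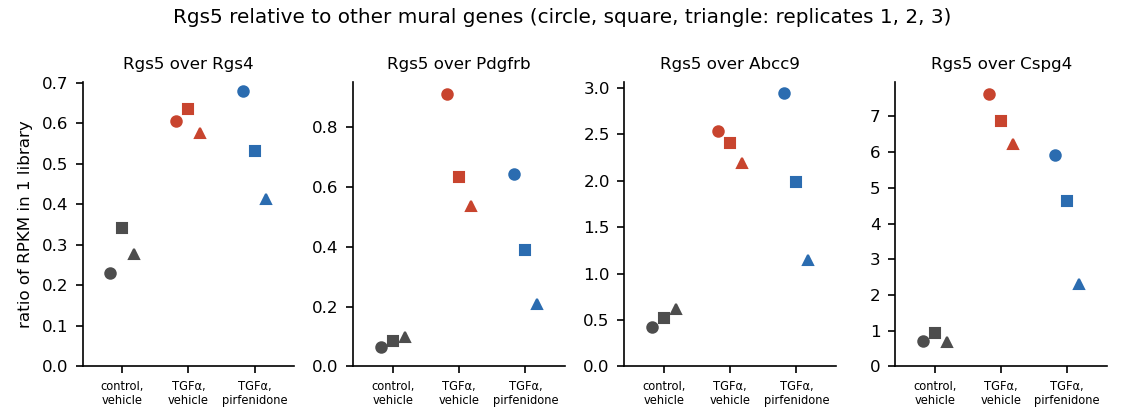
Ratio of Rgs5 RPKM to the RPKM of Rgs4, Pdgfrb, Abcc9 and Cspg4 within each library (vertical axes start at 0; circle, square and triangle for replicates 1, 2 and 3). Controls lie at 0.23 to 0.342 for Rgs4 and 0.0647 to 0.0977 for Pdgfrb, and every TGFα library lies above them.

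Rgs5 was accompanied by Rgs4, its neighbour on chromosome 1 and a regulator of the same class of G proteins. Rgs4 measured 12.0, 10.4 and 10.6 RPKM in controls, 47.1, 29.6 and 34.0 RPKM with vehicle, and 43.6, 35.0 and 18.6 RPKM with pirfenidone. As for Rgs5, all TGFα libraries were above all controls and pirfenidone replicate 3 was the lowest of them. Rgs4 was 3.35-fold higher than control with vehicle (log2 fold change 1.63, SE 0.284, adjusted p = 0.00622) and 2.94-fold higher with pirfenidone (1.40, SE 0.284, adjusted p = 0.0133, both by limma). The second call was lost without pirfenidone replicate 2, with an adjusted p of 0.0545. Rgs5 over Rgs4 was 0.23, 0.342 and 0.277 in controls, 0.606, 0.635 and 0.576 with vehicle and 0.68, 0.532 and 0.413 with pirfenidone, so Rgs5 changed by more than its neighbour in the same libraries. Rgs5 was selected for its rise, so this ratio too is a description. Among relatives of the members, Rgs4 included, 24 were listed, 18 were measured and 14 were tested. In TGFα vehicle against control lungs 3 passed as higher (Rgs4, Cox4i1 and the Mcam relative Alcam) and 1 as lower (Rgs18, a regulator of platelets and white blood cells, from 4.86 to 2.28 RPKM, adjusted p = 0.00383), where 12.0% of all genes passed as higher and 11.2% as lower. The 4 became 2 without control replicate 1 or 2 or vehicle replicate 2 or 3. In those fits 9.48% to 11.8% of all genes passed, against 23.3% with all libraries. With pirfenidone against control 1 passed, Rgs4 (higher, as did 10.6% of all genes), and this count ran from 0 without pirfenidone replicate 2 to 3 without control replicate 3 or pirfenidone replicate 3. In these fits, in that order, 8.01%, 22.1% and 20.9% of all genes passed, against 18.4% with all libraries. Rgs2, another regulator of vascular tone, measured 28.9 ± 6.38 RPKM in controls, 41.0 ± 12.8 RPKM with vehicle and 47.7 ± 10.7 RPKM with pirfenidone and did not pass (adjusted p = 0.21 and 0.0871 against control).

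A list of 22 other mural genes was used to see whether Rgs5 stood with the wider programme, and 21 of them were tested. Rgs4 is itself 1 of the 22 and is also counted among the relatives above, so its call is the same one in both counts. In TGFα vehicle against control lungs 2 passed as higher (Rgs4 and Lamc3) and 6 as lower (Vtn, Postn, Gucy1a3, Gucy1b3, Ednrb and Kcnk3), where 12.0% of all genes passed as higher and 11.2% as lower. Their median log2 fold change was -0.33, against 0.04 for all genes. Lamc3, a laminin chain of basement membranes, measured 2.53, 2.54 and 2.38 RPKM in controls, 7.44, 7.27 and 8.01 RPKM with vehicle, and 5.61, 5.47 and 9.26 RPKM with pirfenidone. Unlike Rgs5, Lamc3 was highest in pirfenidone replicate 3. It was 3.05-fold higher than control with vehicle (adjusted p = 0.00244) and 2.73-fold higher with pirfenidone (adjusted p = 0.00399, limma).

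The 6 that fell with vehicle were led by the endothelin receptor Ednrb, from 16.9 to 4.02 RPKM (adjusted p = 0.0024), the matrix protein Vtn, from 7.87 to 3.77 RPKM (adjusted p = 0.0111), and the potassium channel Kcnk3, from 12.7 to 5.99 RPKM (adjusted p = 0.00651). Gucy1a3 and Gucy1b3, the subunits of the nitric oxide receptor guanylate cyclase, went from 72.8 to 46.7 RPKM (adjusted p = 0.0467) and from 62.5 to 37.9 RPKM (adjusted p = 0.0145), and the matrix protein Postn from 112 to 79.3 RPKM (adjusted p = 0.0368; limma in each case). The calls of Ednrb, Vtn and Kcnk3 held in all 13 alternative settings, those of Gucy1b3 and Postn in 9 and that of Gucy1a3 in 5. Gucy1b3 (adjusted p 0.0535 to 0.0601), Postn (0.0914 to 0.135) and Gucy1a3 (0.113 to 0.152) were each lost without control replicate 1 or 2 or vehicle replicate 2 or 3. Gucy1a3 was also lost without vehicle replicate 1 (0.0607), with no filter on low values (0.0502), with only the 2 groups in the model (0.07), and without vehicle replicate 1 and pirfenidone replicate 3 together (0.0626). The defining receptors did not pass: Pdgfrb was 38.5 RPKM in controls and 32.6 RPKM with vehicle (adjusted p = 0.34), and Notch3 was 17.5 and 13.6 RPKM (adjusted p = 0.239). Against control, pirfenidone lungs had 2 higher (Rgs4 and Lamc3) and 3 lower (Vtn, Ednrb and Kcnk3), where 10.6% and 7.74% of all genes passed. Against vehicle they had 0 of 21 that passed by limma or limma-voom and 4 at an unadjusted p under 0.05, where 20.7% of all genes were so. With 1 library left out, 0 passed as higher and up to 1 as lower. Over all 13 alternatives these counts ran to 3 and 1, and Lamc3 passed in 2 of the 13. The count over all genes ran from 4 to 2941 in the same alternatives.

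These counts depended on single libraries, as did the share of all genes that passed. With vehicle, the 6 that fell became 3 without control replicate 1 or 2 or vehicle replicate 2 or 3. In those fits 9.48% to 11.8% of all genes passed, against 23.3% with all libraries. The 2 that rose became 4 without control replicate 3, in a fit where 25% of all genes passed. With pirfenidone, the 3 that fell became 1 without control replicate 1 or 2 or pirfenidone replicate 1 or 2. In those fits 8.01% to 9.21% of all genes passed, against 18.4% with all libraries. The 3 became 5 without control replicate 3, and the 2 that rose became 1 without pirfenidone replicate 2. In these fits 22.1% and 8.01% of all genes passed. Endothelial markers fell in the same comparisons, and Ednrb, Gucy1a3, Gucy1b3 and Kcnk3 are not exclusive to mural cells. The part of other cells in these differences was not tested.

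Signals by which endothelium and pericytes hold together were examined as a list of 10 genes, all tested. In TGFα vehicle against control lungs 0 passed as higher and 4 as lower: the Notch ligand Dll4, from 25.0 to 9.63 RPKM (adjusted p = 0.00301), the sphingosine receptor S1pr1, from 204 to 69.5 RPKM (adjusted p = 0.00406), the angiopoietin receptor Tek and the ligand Angpt2. Over all genes 12.0% passed as higher and 11.2% as lower. All 4 are best known from endothelium, and 9 of 11 endothelial markers passed as lower in the same comparison. The part of endothelial cells in the 4 was not tested. The count became 7 without control replicate 3. Pdgfb, the recruiting ligand, measured 53.5, 52.4 and 40.5 RPKM in controls, 44.8, 28.4 and 34.2 RPKM with vehicle, and 38.8, 37.7 and 33.3 RPKM with pirfenidone. Angpt1, which mural cells make for the receptor Tek, measured 42.1, 42.9 and 21.5 RPKM in controls, 28.9, 15.5 and 17.8 RPKM with vehicle, and 24.1, 23.8 and 22.5 RPKM with pirfenidone. For Angpt1 the third control was close to the TGFα libraries, as it was for Cox4i2. In pirfenidone against control lungs Dll4, S1pr1 and Tek passed as lower, and the cadherin Cdh2 and the receptor Tgfbr2 passed as higher. Over all genes 7.74% passed as lower and 10.6% as higher there. The 5 passing genes of the list became 3 without pirfenidone replicate 2. In that fit 8.01% of all genes passed, against 18.4% with all libraries.

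Because several members respond to low oxygen in other tissues, 13 hypoxia response genes were read beside them. In TGFα vehicle against control lungs 2 of 13 passed as higher and 3 as lower, where 12.0% and 11.2% of all genes did so. Ankrd37, a target of hypoxia-inducible factor, went from 3.49, 2.36 and 2.94 RPKM in controls to 53.6, 30.4 and 23.9 RPKM with vehicle (12.3-fold, adjusted p = 0.00144) and to 35.9, 22.6 and 15.4 RPKM with pirfenidone (8.41-fold, adjusted p = 0.00248, both by limma). Pdk1, which limits entry of pyruvate into mitochondria, was 1.83-fold higher with vehicle (adjusted p = 0.00383). Vegfa, Epas1 and Pfkfb3 passed as lower. The median log2 fold change of the list was 0.02, beside 0.04 for all genes. With pirfenidone against control Vegfa, the endothelial growth factor, went from 156 to 62.9 RPKM (adjusted p = 0.00426), and Car9, a carbonic anhydrase induced by hypoxia, was at 0.936 RPKM in controls, 0.645 RPKM with vehicle and 1.08 RPKM with pirfenidone. The 3 groups of Car9 overlapped, and it did not pass against control (adjusted p = 0.44 with vehicle and 0.828 with pirfenidone, limma).

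The 5 genes whose pattern over the 9 libraries was most like that of Rgs5 were Ntrk2, Ankrd37, Rgs4, Crispld1 and Rbp7, of 13848 compared. Likeness was the root mean square difference of log2(RPKM + 1) after subtracting each gene's mean, and it was 0.394, 0.408, 0.417, 0.445 and 0.465. It uses the contrast on which Rgs5 was selected, so no test is attached to it. Ntrk2, the receptor for brain-derived neurotrophic factor, measured 2.14, 1.52 and 0.922 RPKM in controls, 17.5, 5.44 and 7.84 RPKM with vehicle, and 12.3, 6.38 and 2.40 RPKM with pirfenidone. Like Rgs5, it was lowest among TGFα libraries in pirfenidone replicate 3. Crispld1 measured 0.531 to 1.06 RPKM in controls and 5.17 to 8.80 RPKM in TGFα lungs, and Rbp7, a retinol-binding protein, 0.398 to 0.762 and 1.43 to 6.24 RPKM. None of the other 8 members was among these 5: Abcc9 ranked 487, Kcnj8 987, Higd1b 4930, Trpc6 7774, Cspg4 8342, Ndufa4l2 11626, Cox4i2 12851 and Mcam 13192. The measure depends on the size of a change, so a gene with a similar but smaller change ranks further away.

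**Figure D5:**
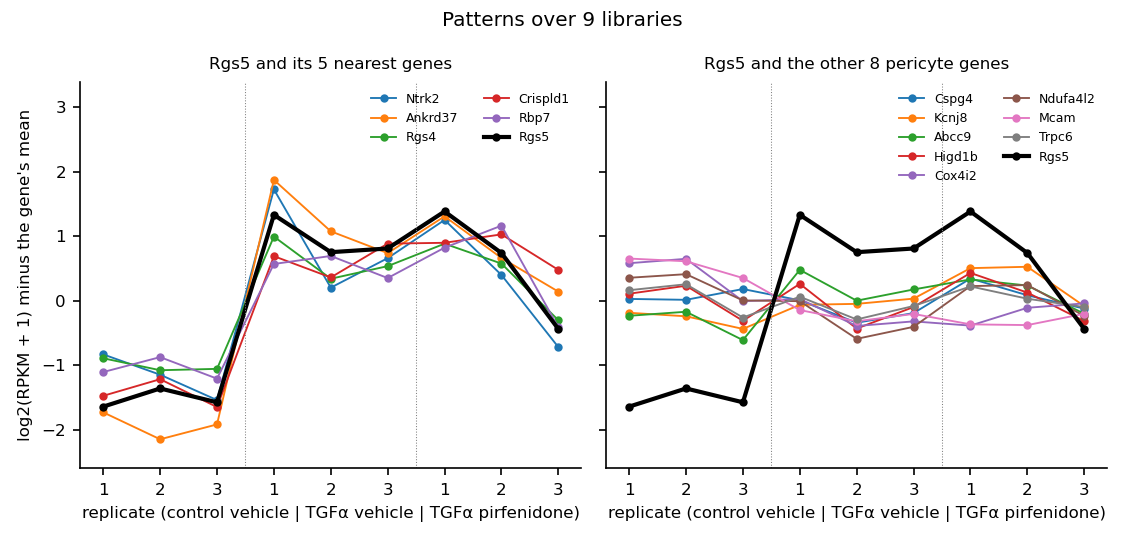
Log2(RPKM + 1) minus each gene's mean over the 9 libraries, ordered by group and replicate, for Rgs5 (black) with its 5 nearest genes (left) and with the other 8 pericyte genes (right). The nearest genes differ from Rgs5 by 0.394 to 0.465 (root mean square), and in the controls the other pericyte genes lie closer to their means than Rgs5.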

How the data were processed

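The deposited table holds RPKM made by the authors for 16165 genes, 1 column for each of the 9 libraries. Its header names no unit, and the unit was settled from the values, which came out as whole reads for 100% of genes (tolerance 0.001 reads). Build mm10 and the tools TopHat, DESeq, bcl2fastq and CASAVA 1.8 appear in the submitters' processing notes. Nothing used here states the annotation, how reads were counted or whether strand was used. The 9 members were matched by symbol, and the symbols of 30 genes that lacked a usable one in the table were filled from RefSeq by gene ID.

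Testing covered the 13849 genes above 1 RPKM in 3 or more libraries, all 9 members included. Limma-trend (limma 3.58.1, R 4.3.3) was run on log2(RPKM + 1) in 1 model of all 9 libraries with group as the only term. Fold changes on this scale understate those of low genes, so folds are given as ratios of group means of RPKM. Tests were two-sided, with Benjamini-Hochberg adjustment over all tested genes and a threshold of 0.05. With 3 libraries against 3, an exact permutation test cannot go below 0.1, so single values were not tested that way. On simulated data with known changes, unchanged genes made up somewhat more of the calls than the nominal share, and the criterion for that check was widened after it first failed, so calls close to the threshold are less firm than their adjusted p. Counting intervals and the floor of 3 reads cover counting error only. Python 3.11.15 with numpy, pandas and matplotlib was used for the read recovery, the motif search and the figures.

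The members and lists were chosen with earlier results of these data known. The text names all members, genes of the lists of other mural genes and relatives, the first 2 genes of each other list and the 2 with the smallest p in the comparison described, and the 5 genes nearest to Rgs5. The remaining genes that passed in a list are named as its counted members. No library pair of a group differed as little as counting noise. Alternatives were the pseudocount, the filter, the scaling, limma-voom on the recovered reads, only the 2 groups compared, a replicate block, each library left out, and 1 setting added after seeing the data.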

Additional observations from a re-analysis of the deposited data

How the results depend on the processing

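The members, the counts over all genes, the list counts against control and the list genes printed with a call were recomputed under 13 alternatives. So were the counts of other mural genes in pirfenidone against vehicle. Not recomputed were Rgs2, Pdgfrb, Notch3, Smtn and Car9, which did not pass, genes named only within a count, and the smooth muscle count in pirfenidone against vehicle. Rgs5, Mcam and Lamc3 kept their calls against control with pirfenidone in all 13, as did Rgs4 and Lamc3 with vehicle. Rgs5 without a test in vehicle against control stayed between 2.31 and 2.84 (log2). Of the calls recomputed singly, some were lost in at least 1 alternative, as given above. These were Kcnj8, Rgs4 and Pecam1 with pirfenidone and Cox4i1, Gucy1a3, Gucy1b3 and Postn with vehicle. Calls made only within a list count could be lost as well. That of Myh11 with pirfenidone was lost where the smooth muscle count fell from 1 to 0. With the added setting below, the hypoxia list count with vehicle went from 5 to 8 and the recruitment count from 4 to 8. In that fit 35.8% of all genes passed, against 23.3% with all libraries. The number of genes that passed in pirfenidone against vehicle was 97 of 13849, but 63 with no filter on low values, 11 with only the 2 groups compared and 95 by limma-voom. Leaving out 1 library at a time gave 4 (without vehicle replicate 2) to 2111 (without pirfenidone replicate 3) in that comparison, 1306 to 3763 in vehicle against control (3222) and 1101 to 3041 in pirfenidone against control (2545). Without vehicle replicate 1 and pirfenidone replicate 3 together, chosen after seeing the data, 4893 genes passed in vehicle against control and 2941 in pirfenidone against vehicle.

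In pirfenidone against vehicle, members that passed numbered 0 to 1 with 1 library left out and 3 in the added setting. With 1 library left out, the log2 fold change ranged from -0.814 to 0.097 for Rgs5, from -0.206 to 0.065 for Abcc9, from -0.006 to 0.368 for Higd1b, from -0.032 to 0.177 for Cox4i2 and from -0.487 to 0.106 for Rgs4, and in the added setting it was 0.28 for Rgs5, 0.195 for Abcc9 and 0.292 for Rgs4. None of these passed. In pirfenidone against control the same ranges were -0.093 to 0.14 for Cspg4, -0.105 to 0.269 for Higd1b and -0.158 to 0.1 for Trpc6. Cspg4 was at -0.018 with median-of-ratios scaling. Trpc6 was at 0.001 with a pseudocount of 0.1 and 0.074 in the added setting. None of these passed either, and the cause of each change of sign was not tested.

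Median-of-ratios scaling changed the share of passing genes that were higher from 51.7% to 44.9% in vehicle against control and from 57.9% to 46.3% in pirfenidone against control. Over all genes it moved the median (log2) from 0.04 to 0.001 and from 0.05 to -0.001. The replicate numbers did not pair the libraries: 3 of 9 same-number pairs had a correlation of deviations over 0.1 (range -0.136 to 0.458). With the replicate block, 3222, 21 and 2483 genes passed in vehicle against control, pirfenidone against vehicle and pirfenidone against control. The fewest reads of a member in a library were 84 (Rgs5), which gives a counting error of 10.9%, and each interval rests on 3 libraries a group.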
